A study of Mus musculus with 556 samples.

Results

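Zygotes are fertilised eggs before their first division, and 19 of them that received Dam-lamin B1 were set against 46 that received Dam alone. They were taken by title from a deposited table of 512 single cells, in a series of 556 samples. In DamID the bacterial adenine methyltransferase Dam marks the DNA that it meets, and the marked DNA is amplified and sequenced. Fused to lamin B1, a protein of the nuclear lamina, it marks chromatin at the nuclear edge, and unfused it marks open chromatin anywhere in the nucleus. Each profile came from 1 zygote. The strain label of both groups is a C57BL/6 female crossed with a CAST/EiJ male, while the growth protocol names F1 females (CBAxC57BL/6J) aged 5 to 8 weeks. At 21 hours after hCG, zygotes were injected with mRNA for AID-Dam-LaminB1 at 5 ng/µl or for AID-Dam-only at 20 ng/µl. Both mixtures held mRNA for TIR1 at 250 ng/µl, which lets auxin trigger the loss of the fusion protein, and for membrane-EGFP at 50 ng/µl. Zygotes were then kept without auxin for 6 to 8 hours, and the auxin concentration given for both groups is 500 µM. The dose of Dam mRNA thus differed between the groups. Neither the mother, the litter nor the day of a zygote is labelled, and p-values measure only the spread between these zygotes.

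Lamina-associated domains (LADs) are long stretches of chromatin that lie against the nuclear lamina. In most mammalian cell types they are gene-poor, late-replicating and weakly transcribed, and they are separated by gene-rich inter-LADs that lie further inside the nucleus. In the zygote the 2 parental genomes are still held in separate pronuclei, each with a lamina of its own.

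The measure was OE, the ratio of observed to expected reads in bins of 100 kb on the 19 autosomes (build mm10), and an OE of 1 is the expectation. LADs were taken from the deposited lists for the inner cell mass (ICM) and the trophectoderm (TE) of the blastocyst, a later stage. A LAD bin was covered to at least 50% by both lists (12082 bins with a value), an inter-LAD bin was touched by neither (7688), and the other 4252 were left out of both classes. Consecutive bins of 1 class form a run. Depth, recovered from the steps between OE values, was 28295 to 222339 reads in the Dam-lamin B1 zygotes (median 41621) and 38746 to 331665 in the Dam zygotes (median 93921). The share of empty bins had medians of 30.1% with Dam-lamin B1 against 14.1% with Dam. Depth therefore moved with the group, and the measures were also computed at an equal 28295 reads per zygote.

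The 4 promoters below are shown because they lie in the longest called domains of each direction. They are the 250 bases before the RefSeq start (GRCm38.p6, 5′ to 3′) of a long gene in each of the longest 2 domains called higher and the longest 2 called lower, described further on. Capitals mark GATC, the site that Dam methylates. Cdh12 (chr15:21111202-21111451, plus strand) and Pcdh9 (chr14:93890680-93890929, minus strand) encode adhesion proteins of the cadherin superfamily. Tbc1d22a (chr15:86214209-86214458, plus strand) encodes a protein with a Rab GTPase-activating domain, and Igsf21 (chr4:140246812-140247061, minus strand) a synaptic immunoglobulin protein.
Cdh12: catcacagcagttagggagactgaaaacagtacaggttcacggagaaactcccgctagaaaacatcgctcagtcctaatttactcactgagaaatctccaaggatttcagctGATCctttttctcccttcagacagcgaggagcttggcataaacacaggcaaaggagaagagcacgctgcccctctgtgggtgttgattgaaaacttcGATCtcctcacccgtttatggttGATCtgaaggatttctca
Pcdh9: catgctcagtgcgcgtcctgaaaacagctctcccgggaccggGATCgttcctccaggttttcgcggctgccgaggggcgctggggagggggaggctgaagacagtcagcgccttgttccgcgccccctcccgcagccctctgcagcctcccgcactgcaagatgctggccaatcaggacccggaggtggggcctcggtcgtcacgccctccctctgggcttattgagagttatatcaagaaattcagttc
Tbc1d22a: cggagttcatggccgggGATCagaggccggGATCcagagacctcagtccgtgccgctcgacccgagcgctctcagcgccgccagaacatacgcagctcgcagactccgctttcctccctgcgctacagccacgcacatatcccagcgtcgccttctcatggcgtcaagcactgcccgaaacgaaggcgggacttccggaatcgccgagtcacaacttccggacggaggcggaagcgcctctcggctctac
Igsf21: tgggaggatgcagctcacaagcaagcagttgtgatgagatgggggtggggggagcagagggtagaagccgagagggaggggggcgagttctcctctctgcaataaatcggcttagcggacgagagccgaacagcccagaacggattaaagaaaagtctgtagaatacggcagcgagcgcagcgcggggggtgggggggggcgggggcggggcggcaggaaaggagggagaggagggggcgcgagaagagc
The Cdh12 promoter holds 3 GATC sites, has 46.8% G and C and holds 7 CpG dinucleotides. In its 100 kb bin, mean OE was 1.73 ± 1.51 with Dam-lamin B1 against 0.572 ± 0.682 with Dam (SD, n = 19 and 46). The Pcdh9 promoter holds 1 GATC and 18 CpG, and its bin had 1.30 ± 1.16 with Dam-lamin B1 against 0.444 ± 0.522 with Dam. The Tbc1d22a promoter holds 2 GATC and 29 CpG, and its bin had 0.467 ± 0.770 with Dam-lamin B1 against 1.59 ± 1.41 with Dam. The Igsf21 promoter holds no GATC and 17 CpG, and its bin had 0.409 ± 0.357 with Dam-lamin B1 against 1.47 ± 0.915 with Dam. In limma the adjusted p of the 4 bins was between 3.69e-07 and 0.000766 (n = 19 and 46). Since the bins were taken from domains built from these limma calls, this is a description and no separate test.

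Over 25529 promoters with 1 start per gene, GATC was about equally common on both sides, while base composition was not. It lay in 42.0% of the 1674 promoters in bins called higher with Dam-lamin B1, in 41.1% of the 15778 in bins called lower and in 41.6% of all. The median share of G and C was 38.4% in bins called higher, 55.2% in bins called lower and 52.4% over all promoters. At least 10 CpG were held by 11.2% of the promoters in higher bins, by 46.3% of those in lower bins and by 39.1% of all. Within LAD bins alone the median share of G and C was 37.6% for promoters in higher bins and 49.6% for those in lower bins. These are descriptions of the bins' DNA, and the part of base composition in the differences was not tested.

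The first question was whether lamina contact in zygotes depends on the length of the later LAD. With Dam-lamin B1, mean OE was above 1 in LADs of 0.5 Mb or longer and highest in the longest, and below 1 in the shortest. In each zygote the log2 of the mean OE was taken over all LAD runs of a length class. In the 58 LAD runs of 5 Mb or longer it ran from 0.19 to 0.55 with Dam-lamin B1 (median 0.38) and from -0.62 to -0.14 with Dam (median -0.39), and the groups did not overlap. The means were 0.39 ± 0.10 with Dam-lamin B1 against -0.39 ± 0.12 with Dam, a difference of 0.78 (SE 0.03, 2-sided permutation test, adjusted p = 1.11e-05, 19 of 19 zygotes).

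Mid-sized LADs lay between these ends. In the 148 runs of 2 to under 5 Mb the log2 mean OE was 0.22 ± 0.08 with Dam-lamin B1 against -0.24 ± 0.07 with Dam, and in the 154 of 1 to under 2 Mb it was 0.18 ± 0.09 and -0.24 ± 0.08 in the same order. In both classes the groups did not overlap, with differences of 0.46 and 0.42 (adjusted p = 1.11e-05 each, permutation). They depended on the list: with the ICM list alone they were 0.26 and 0.15, and with the TE list alone 0.31 and 0.25, all past the threshold. In the 101 runs of 0.5 to under 1 Mb it was 0.06 ± 0.07 with Dam-lamin B1 against -0.12 ± 0.07 with Dam, and the groups overlapped. That difference of 0.18 passed the permutation test (adjusted p = 1.11e-05, 19 of 19 above the Dam mean), but it turned to -0.10 with the ICM list alone and to -0.08 with the TE list alone, both past the threshold.

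In the 82 LAD runs under 0.5 Mb the order was the other way round. The log2 mean OE ran from -0.48 to 0.10 with Dam-lamin B1 (median -0.16) and from -0.24 to 0.07 with Dam (median -0.05). The means were -0.18 ± 0.15 with Dam-lamin B1 against -0.06 ± 0.08 with Dam, and the difference of -0.12 (SE 0.04) had an adjusted p of 9e-05 (permutation, 15 of 19 zygotes below the Dam mean). At equal reads it was -0.09 (adjusted p = 0.0086), and with the ICM or the TE list alone -0.22 and -0.32. The ratio of long LADs (5 Mb or longer) to those under 1 Mb was 0.38 ± 0.11 on the log2 scale with Dam-lamin B1 against -0.29 ± 0.10 with Dam, without overlap (difference 0.66, SE 0.03, permutation adjusted p = 1e-05). LAD bins of the shortest class held 0.618 genes on average and those of the longest 0.431.

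Inter-LADs were low with Dam-lamin B1 at every length, while with Dam the mean was higher in long inter-LADs than in short ones. The log2 mean OE with Dam-lamin B1 lay between -0.28 ± 0.10 (0.5 to under 1 Mb) and -0.42 ± 0.20 (2 to under 5 Mb), and was -0.36 ± 0.23 at 5 Mb or longer. With Dam it was 0.13 ± 0.11 in runs under 0.5 Mb, 0.11 ± 0.07 at 0.5 to under 1 Mb, 0.39 ± 0.08 at 1 to under 2 Mb, 0.46 ± 0.08 at 2 to under 5 Mb and 0.59 ± 0.10 at 5 Mb or longer. The groups did not overlap in any of the 5 classes, and the differences were -0.43, -0.39, -0.79, -0.87 and -0.95 from the shortest class to the longest (permutation adjusted p = 1.11e-05 each). The ratio of long to short inter-LADs was -0.08 ± 0.15 with Dam-lamin B1 against 0.47 ± 0.09 with Dam (difference -0.55, SE 0.04, adjusted p = 1e-05). With 1 list alone the differences of the shorter classes were smaller. Under 0.5 Mb the difference was -0.07 with the ICM list (adjusted p = 0.178) and -0.14 with the TE list, at 0.5 to under 1 Mb -0.12 and -0.01 in the same order (adjusted p = 0.626 with the TE list), and at 1 to under 2 Mb -0.35 and -0.49. The ratio of long to short inter-LADs differed by -0.89 with the TE list.

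**Figure D1:**
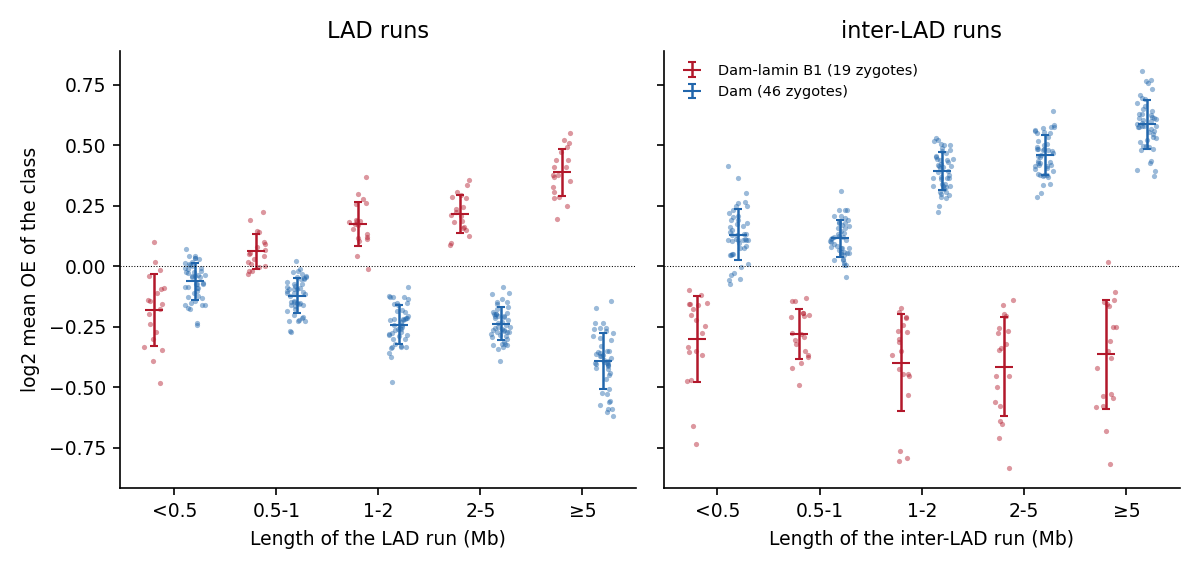
Log2 of the mean OE per zygote over LAD runs (left) and inter-LAD runs (right) by run length in Mb; each point is 1 zygote, and the bar and whiskers are the mean and SD of each group. With Dam-lamin B1 the LAD means climb from -0.18 to 0.39 with length, while in inter-LADs the Dam means climb to 0.59.

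Run by run, the long LADs were nearly all higher and the short ones went both ways. Of 885 LAD and inter-LAD runs tested in limma on log2(OE + 0.25), 83.4% differed, 30.1% higher and 53.3% lower with Dam-lamin B1. Among LAD runs of 5 Mb or longer, 52 of 58 were higher and 1 was lower, with a median log2 difference of 0.61. Among those of 2 to under 5 Mb, 79 of 148 were higher and 29 lower (median 0.26). At 1 to under 2 Mb, 73 of 154 were higher and 42 lower (median 0.20). At 0.3 to under 1 Mb, 41 of 147 were higher and 64 lower (median -0.21). All 34 inter-LAD runs of 5 Mb or longer and all 100 of 2 to under 5 Mb were lower, as were 102 of 109 at 1 to under 2 Mb and 100 of 135 at 0.3 to under 1 Mb, where 18 were higher. Across runs, which are not independent, Spearman's rho between length and the log2 difference was 0.34 over 507 LAD runs and -0.30 over 378 inter-LAD runs. The fitted differences on this scale understate the change of runs with low OE.

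**Figure D2:**
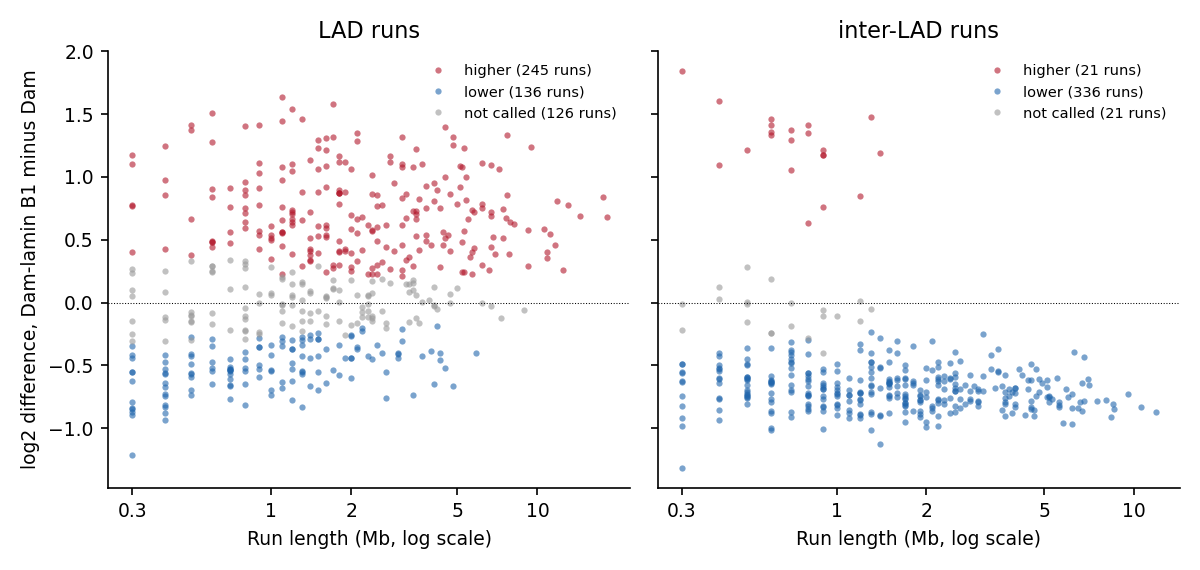
Log2 difference, Dam-lamin B1 minus Dam, of each of 507 LAD runs (left) and 378 inter-LAD runs (right) against run length in Mb on a log scale; each point is 1 run, coloured by its limma call at an adjusted p under 0.05. LAD runs of 5 Mb or longer lie mostly above 0 (52 of 58 called higher), and inter-LAD runs of 2 Mb or longer all lie below it.

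The longest LAD runs were enriched with Dam-lamin B1 in most zygotes. The longest, 18.2 Mb on chromosome 15 (39300001 to 57500000), holds Csmd3, which encodes a large transmembrane protein of neurons, and Rims2, a synaptic vesicle release gene. Its OE ran from 0.471 to 1.74 with Dam-lamin B1 (median 1.23) and from 0.315 to 0.942 with Dam (median 0.714), and 17 of 19 zygotes lay above every Dam zygote. The limma log2 difference was 0.68 (SE 0.08, adjusted p = 3.44e-12). The next, 17.6 Mb on chromosome 13 (74600001 to 92200000), holds Adgrv1, a giant adhesion receptor of hair cells, and Edil3. Its OE was 1.49 ± 0.34 with Dam-lamin B1 against 0.714 ± 0.122 with Dam (difference 0.84, SE 0.07, limma adjusted p = 3.48e-18, 18 of 19 above all Dam zygotes). The run of 12.5 Mb on chromosome 2 (105400001 to 117900000) with Ryr3, a calcium release channel, had a smaller difference. Its OE was 1.09 ± 0.34 with Dam-lamin B1 against 0.845 ± 0.164 with Dam (0.26, SE 0.08, limma adjusted p = 0.00224), and 3 of 19 zygotes lay above all Dam zygotes.

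Some long LAD runs of the blastocyst were lower with Dam-lamin B1 in the zygote, and the following were chosen after their values were seen. The run of Tmem132d and Tmem132c on chromosome 5 (125700001 to 128400000, 2.7 Mb) had an OE from 0.190 to 1.21 with Dam-lamin B1 (median 0.594) and from 0.623 to 1.88 with Dam (median 1.09). Of the Dam-lamin B1 zygotes 13 of 19 lay below every Dam zygote (log2 difference -0.76, SE 0.09, limma adjusted p = 6.6e-12). In the same run the mean OE with Dam-lamin B1 was 1.23 ± 0.39 in cells of 2-cell embryos and 2.02 ± 0.65 in those of 8-cell embryos. The run of Dock1, a Rac activator, and the metalloprotease gene Adam12 on chromosome 7 (133800001 to 138600000, 4.8 Mb) had 0.603 ± 0.130 with Dam-lamin B1 against 1.12 ± 0.29 with Dam (-0.67, SE 0.08, limma adjusted p = 1.75e-11). With Dam-lamin B1 its mean OE was 1.36 ± 0.41 at the 2-cell stage and 1.67 ± 0.61 at the 8-cell stage. The run of Rbms3, an RNA-binding protein, and Itga9, an integrin, on chromosome 9 (115400001 to 118800000) had 0.527 ± 0.211 with Dam-lamin B1 against 1.03 ± 0.23 with Dam in zygotes. With Dam-lamin B1 it had 1.09 ± 0.54 at the 2-cell and 1.75 ± 0.43 at the 8-cell stage. The run of Fto, an RNA demethylase, and Chd9 on chromosome 8 (89700001 to 93800000) had 0.544 ± 0.159 with Dam-lamin B1 against 0.994 ± 0.261 with Dam, and 0.885 ± 0.433 with Dam-lamin B1 at the 2-cell stage. In the order the runs are named, Dam at the 2-cell stage gave 0.997 ± 0.228, 1.10 ± 0.27, 0.870 ± 0.244 and 0.932 ± 0.239. Dam-lamin B1 in embryonic stem (ES) cells gave 0.862 ± 0.272, 1.02 ± 0.22, 0.979 ± 0.289 and 0.804 ± 0.226 in the same order. mRNA doses differ between stages, and the difference between stages was not tested for these runs.

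The converse was seen in a few inter-LADs, also chosen after their values were seen. The 1.3 Mb run over Pcdh9 on chromosome 14 (93100001 to 94400000), free of LADs in both blastocyst lists, had an OE from 0.806 to 2.36 with Dam-lamin B1 (median 1.38) and from 0.0450 to 0.945 with Dam (median 0.330). Of the Dam-lamin B1 zygotes 16 of 19 lay above every Dam zygote (log2 difference 1.48, SE 0.12, limma adjusted p = 2.12e-18). With Dam-lamin B1 its mean OE was 0.379 ± 0.254 at the 2-cell stage, where Dam gave 0.309 ± 0.142. A gene-free run on chromosome 3 (70700001 to 72100000) had 1.46 ± 0.53 with Dam-lamin B1 against 0.473 ± 0.156 with Dam. At the 2-cell stage it had 0.555 ± 0.344 with Dam-lamin B1 against 0.472 ± 0.180 with Dam. The run of Foxp2, a forkhead transcription factor, and Mdfic on chromosome 6 (14800001 to 16000000) had 1.33 ± 0.60 with Dam-lamin B1 against 0.601 ± 0.258 with Dam. At the 2-cell stage this run had 1.21 ± 0.37 with Dam-lamin B1 against 0.587 ± 0.321 with Dam. Zygotes kept in DMSO, 11 in number, were not used to choose these runs. With Dam-lamin B1 they gave 0.938 ± 0.407, 1.16 ± 0.42 and 1.03 ± 0.32 in the order the runs are named. The difference between stages was not tested for these runs.

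The second question was how sharply the zygote profile follows the borders of the later LADs. Borders had at least 1 Mb of LAD on one side and 1 Mb of inter-LAD on the other. At most 2 bins outside both classes could lie between, and these were left out. The first bins inside and outside are therefore not always neighbours. Over 163 such borders, OE with Dam-lamin B1 was higher in the sixth bin of the LAD than in the first. OE with Dam was lower in the first bins inside the LAD than in those outside. In the first bin inside the LAD, OE was 0.847 ± 0.114 with Dam-lamin B1 against 1.06 ± 0.08 with Dam. In the third it was 0.916 ± 0.105 and 0.901 ± 0.064 in the same order, and in the sixth 1.07 ± 0.12 and 0.897 ± 0.071. Outside, OE stayed between 0.737 and 0.830 with Dam-lamin B1 and between 1.31 and 1.47 with Dam over 1 Mb. The step, the log2 ratio of the 5 bins inside to the 5 bins outside, ran from -0.21 to 0.66 with Dam-lamin B1 (median 0.22) and from -0.87 to -0.33 with Dam (median -0.56). It averaged 0.24 ± 0.23 with Dam-lamin B1 against -0.56 ± 0.12 with Dam, without overlap (difference 0.80, SE 0.05, permutation adjusted p = 2e-05, 19 of 19). With the borders of the ICM list alone the difference was 0.45, and with those of the TE list alone 0.54. The step was above 0 in 17 of the 19 Dam-lamin B1 zygotes. The share of the full 1 Mb step that falls on the border bins could not be read with Dam-lamin B1, since the step is near 0 in some zygotes.

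**Figure D3:**
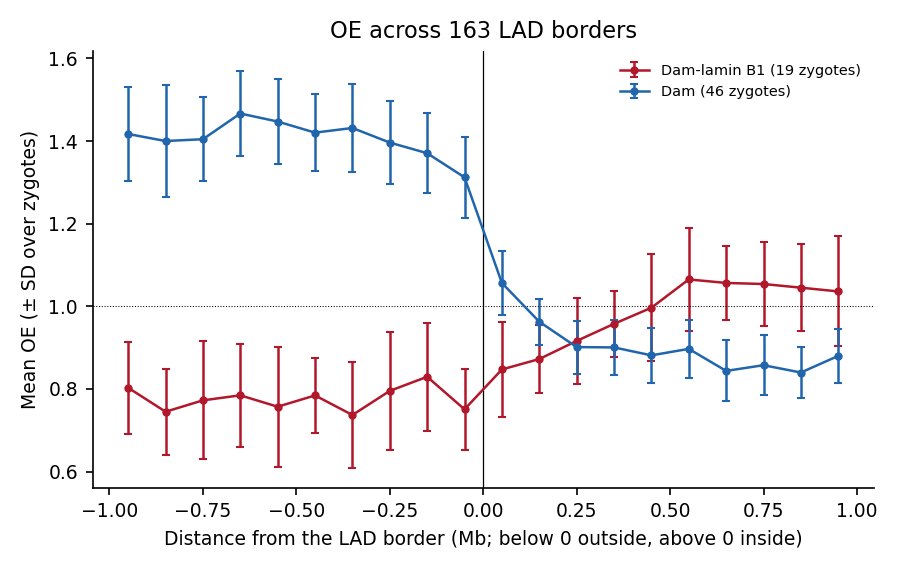
Mean OE (± SD over zygotes) in 100 kb bins across 163 LAD borders, against distance from the border in Mb, with the inter-LAD left of 0 and the LAD right of it. The Dam-lamin B1 line goes from 0.847 in the first LAD bin to 1.07 in the sixth, and the Dam line drops from 1.31 in the first bin outside to 1.06 in the first inside.

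The centre of long LADs was higher than their edges with Dam-lamin B1 and lower with Dam. In LAD runs of 5 Mb or longer, 3328 bins at least 1 Mb from the ends were set against 580 bins within 0.5 Mb of them. The log2 ratio ran from 0.0737 to 0.356 with Dam-lamin B1 (median 0.218) and from -0.334 to 0.0673 with Dam (median -0.165), without overlap. It averaged 0.22 ± 0.07 with Dam-lamin B1 against -0.16 ± 0.09 with Dam (difference 0.38, SE 0.02, permutation adjusted p = 1e-05). With the ICM list alone the difference was 0.57, and with the TE list alone 0.58.

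For orientation, the same measures with Dam-lamin B1 elsewhere in the series are given as values, untested, at depths and mRNA doses of their own. In LAD runs of 5 Mb or longer the log2 mean OE was 0.32 ± 0.19 in 11 zygotes kept in DMSO, 0.45 ± 0.15 in 15 paternal and 0.32 ± 0.09 in 10 maternal pronuclei. In the same runs it was -0.25 ± 0.14 in 56 oocytes, 0.14 ± 0.14 in 47 cells of 2-cell embryos and 0.19 ± 0.13 in 41 cells of 8-cell embryos. In 10 ES cells it was 0.32 ± 0.10 there. In LAD runs under 0.5 Mb it was -0.07 ± 0.12 in DMSO zygotes, 0.17 ± 0.15 at the 2-cell and 0.23 ± 0.13 at the 8-cell stage. For these short runs it was -0.01 ± 0.27 in paternal pronuclei, -0.17 ± 0.18 in maternal pronuclei and 0.17 ± 0.07 in ES cells. The border step was 0.41 ± 0.40 in DMSO zygotes, -0.28 ± 0.19 in oocytes, 0.74 ± 0.42 at the 2-cell stage, 1.02 ± 0.44 at the 8-cell stage and 0.84 ± 0.30 in 10 ES cells. The interior-to-edge ratio was 0.07 ± 0.05 in DMSO zygotes, 0.19 ± 0.09 in paternal pronuclei, -0.04 ± 0.11 at the 2-cell stage and -0.10 ± 0.08 at the 8-cell stage.

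Turning to whole chromosomes, every autosome carried the difference. The LAD contrast of a chromosome is the log2 ratio of mean OE in its LAD bins to that in its inter-LAD bins. It was higher with Dam-lamin B1 on 19 of 19 autosomes (permutation adjusted p = 1e-05 each), and on 18 of them the groups did not overlap. The difference was greatest on chromosomes 17 and 5. On chromosome 17 the contrast ran from 0.19 to 1.63 with Dam-lamin B1 (median 0.81) and from -1.30 to -0.39 with Dam (median -0.95), a difference of 1.78 (SE 0.09). On chromosome 5 it was 0.74 ± 0.31 with Dam-lamin B1 against -0.87 ± 0.19 with Dam, a difference of 1.61. With LADs from both lists together it was smallest on chromosomes 16 and 19. On chromosome 16 the contrast was 0.43 ± 0.27 with Dam-lamin B1 against -0.62 ± 0.18 with Dam (difference 1.05), and on chromosome 19 it was 0.46 ± 0.40 with Dam-lamin B1 against -0.66 ± 0.19 with Dam (1.13). The lower end of this order depended on the list. With the ICM list alone the smallest differences were 0.42 on chromosome 16 and 0.68 on chromosome 3, with 1.03 on chromosome 19, and with the TE list alone they were 0.74 on chromosome 6 and 0.92 on chromosome 19, with 1.11 on chromosome 16. Chromosome 12 had the highest mean with Dam-lamin B1 (0.88 ± 0.28). On chromosome 11 a single Dam-lamin B1 zygote stood at -0.69, inside the Dam range, while the group's median was 0.38.

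**Figure D4:**
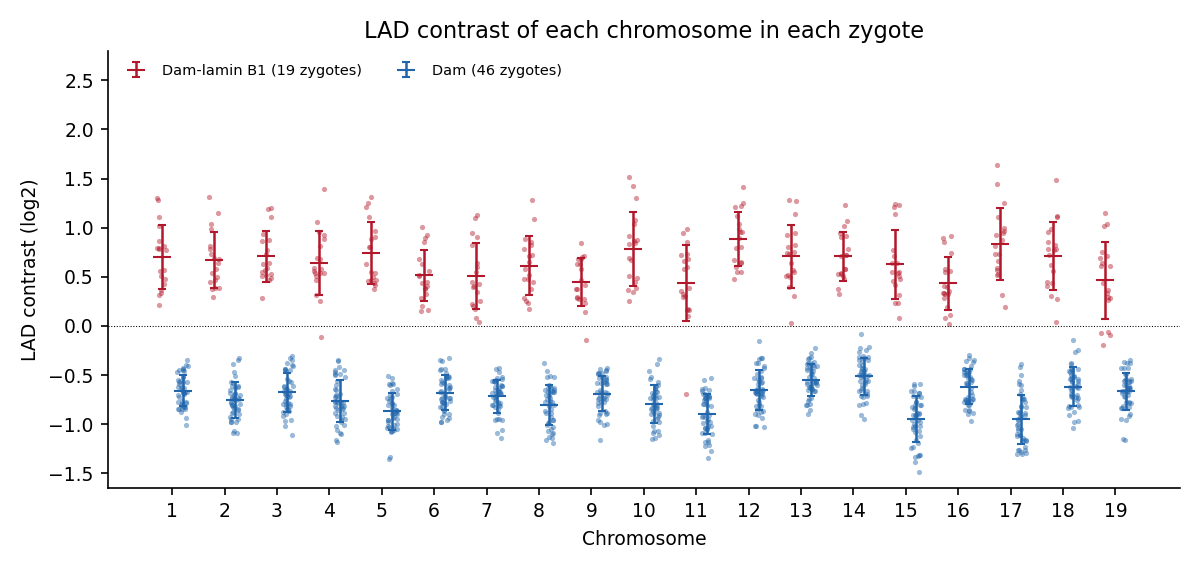
LAD contrast (log2) of each autosome in each zygote; points are zygotes, and the bar and whiskers are the mean and SD of each group. The groups are apart on every chromosome except for 1 Dam-lamin B1 zygote at -0.69 on chromosome 11.

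Whole chromosomes also differed in their mean OE relative to the zygote's own mean. The mean was higher with Dam-lamin B1 on 6 autosomes (1, 3, 10, 14, 16 and 18) and lower on 5 (7, 9, 11, 17 and 19). On chromosome 17 the difference was -0.12 (permutation adjusted p = 0.0018), and without zygotes under 40000 reads it was -0.06 and did not pass (adjusted p = 0.14). Chromosome 11, which is rich in genes, had the lowest difference: its log2 level ran from -0.23 to 0.19 with Dam-lamin B1 (median 0.01) and from 0.14 to 0.54 with Dam (median 0.29), and 18 of 19 Dam-lamin B1 zygotes lay below every Dam zygote. The difference was -0.28 (SE 0.03, permutation adjusted p = 3.8e-05). On chromosome 7 the level was -0.23 ± 0.13 with Dam-lamin B1 against 0.03 ± 0.12 with Dam (-0.26, adjusted p = 3.8e-05, permutation). On chromosome 3 it was 0.03 ± 0.15 with Dam-lamin B1 against -0.18 ± 0.11 with Dam (0.21, adjusted p = 3.8e-05, permutation), and the groups overlapped. With the 2 Dam-lamin B1 and 19 Dam zygotes of at least 100000 reads, all 11 differences kept their sign, at 0.20 on chromosome 1, 0.22 on chromosome 3, -0.18 on chromosome 7 and -0.23 on chromosome 11, and none passed (exact permutation test, adjusted p between 0.0603 and 0.205). Of 2397 windows of 1 Mb, 81.9% were called by limma, 781 (32.6%) higher with Dam-lamin B1 and 1182 (49.3%) lower. Chromosome 16 had 43 of 95 windows higher and chromosome 3 had 68 of 157, while chromosome 9 had 24 of 121 and chromosome 7 had 31 of 142. Chromosome 19 had 36 of 58 windows lower and chromosome 11 had 73 of 119. Genes per Mb were 7.13 on chromosome 16, 6.26 on chromosome 3, 9.88 on chromosome 9, 14.2 on chromosome 7, 12.1 on chromosome 19 and 13.5 on chromosome 11.

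Along the chromosomes, the distal end stood out, where mouse chromosomes have the telomere far from the centromere. Over the last 10 Mb of each autosome the log2 OE relative to the zygote's mean ran from -0.35 to 0.08 with Dam-lamin B1 (median -0.13) and from 0.06 to 0.40 with Dam (median 0.21), and 18 of 19 Dam-lamin B1 zygotes lay below every Dam zygote. The difference was -0.34 (SE 0.03, permutation adjusted p = 1.06e-05), and -0.19 when only the last 5 Mb were taken. Over the first 10 Mb, next to the centromere, the level was -0.0049 ± 0.0857 with Dam-lamin B1 against -0.04 ± 0.08 with Dam, a difference of 0.03 that did not pass (adjusted p = 0.175, permutation). Over the first 5 Mb it was -0.07 ± 0.13 with Dam-lamin B1 against 0.02 ± 0.11 with Dam, a difference of -0.09 that passed (adjusted p = 0.00448, permutation).

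Divided into 10 equal parts, the autosomes had higher levels with Dam-lamin B1 in parts 1 to 6 and in part 8, and lower levels in parts 7, 9 and 10. In part 10 the level was -0.14 ± 0.10 with Dam-lamin B1 against 0.23 ± 0.08 with Dam (difference -0.37, permutation adjusted p = 1.06e-05, no overlap). LAD and inter-LAD bins were also taken apart. In LAD bins the difference was 0.82 in part 2, 0.18 in part 9 and 0.21 in part 10. In LAD bins of part 2 the level was 0.47 ± 0.10 with Dam-lamin B1 against -0.34 ± 0.13 with Dam, and in those of part 10 it was 0.13 ± 0.12 with Dam-lamin B1 against -0.08 ± 0.07 with Dam. In inter-LAD bins the difference was -0.70 in part 1 and -1.03 in part 10. The inter-LAD level in part 10 was -0.46 ± 0.23 with Dam-lamin B1 against 0.57 ± 0.12 with Dam. In LAD bins the order of the 2 ends depended on how much of the end was taken: over 10 Mb the difference was 0.24 at the distal end and 0.45 at the proximal end, and over 5 Mb it was 0.49 and 0.38 in the same order. In part 1 the inter-LAD difference was -0.38 with the TE list alone.

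**Figure D5:**
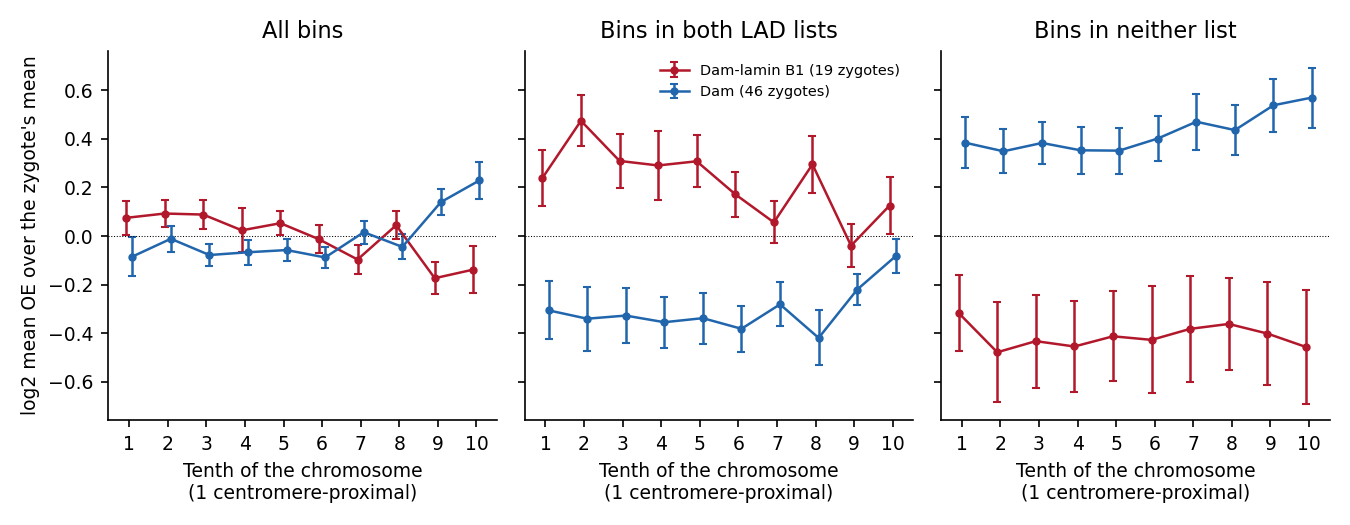
Log2 of the mean OE over the zygote's own mean in 10 equal parts of each autosome, from the centromere-proximal part 1 to the distal part 10 (mean ± SD over zygotes), for all bins, bins in both LAD lists and bins in neither. The groups are furthest apart over all bins in part 10, at -0.14 with Dam-lamin B1 against 0.23 with Dam.

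Group differences in the length scale of the profile in single zygotes depended on the depth at which they were taken. Pearson's r between the OE of bins 0.1 Mb apart was 0.287 ± 0.087 with Dam-lamin B1 against 0.310 ± 0.098 with Dam, a difference of -0.02 (adjusted p = 0.659, permutation). At 1 Mb it was 0.141 ± 0.051 with Dam-lamin B1 against 0.148 ± 0.054 with Dam, also not past the threshold. At 10 Mb it was 0.0175 ± 0.0139 with Dam-lamin B1 against 0.0350 ± 0.0201 with Dam (adjusted p = 0.00504, permutation, 17 of 19 below the Dam mean), a difference of -0.0175 that was -0.00726 at equal reads (adjusted p = 0.0289). At equal reads the differences from 0.1 to 2 Mb turned positive and passed (0.04 at 0.1 Mb, adjusted p = 0.0206, permutation). The SD of log2(OE + 0.25) over 1 Mb windows was 0.654 ± 0.118 with Dam-lamin B1 against 0.572 ± 0.119 with Dam (adjusted p = 0.0144, permutation), and at equal reads 0.690 ± 0.094 and 0.652 ± 0.094 in the same order (adjusted p = 0.166). Runs of consecutive bins with an OE of at least 1 averaged 0.203 ± 0.021 Mb with Dam-lamin B1 against 0.223 ± 0.021 Mb with Dam (adjusted p = 0.00174, permutation). At equal reads they averaged 0.174 ± 0.007 Mb with Dam-lamin B1 against 0.171 ± 0.007 Mb with Dam (adjusted p = 0.127, permutation). The longest such run in a zygote was 1.5 to 5.4 Mb with Dam-lamin B1 against 1.5 to 7.8 Mb with Dam.

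Zygotes of 1 group resembled each other more than the other group. Over 1 Mb windows, Pearson's r between a zygote and the mean of the others of its group was 0.612 ± 0.078 with Dam-lamin B1 (0.418 to 0.691) against 0.727 ± 0.096 with Dam (0.463 to 0.853). At equal reads it was 0.564 ± 0.080 with Dam-lamin B1 against 0.630 ± 0.087 with Dam. With the mean of the other group, r was -0.303 on average for Dam-lamin B1 zygotes and -0.344 for Dam zygotes. These values share windows and group means and carry no test.

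Bin by bin, 60.1% of 23888 bins differed in limma on log2(OE + 0.25), 22.1% higher and 37.9% lower with Dam-lamin B1, with a median difference of -0.37. The share of higher bins among the calls was 36.8%, and at equal reads 52.2% (4673 higher and 4286 lower of 23723). Bins called in 1 direction, bridging at most 2 uncalled bins, formed 531 higher and 887 lower domains. The higher domains covered 608.8 Mb, 84.9% of it in domains of 1 Mb or longer, and the longest was 11.0 Mb. At equal reads they covered 564.4 Mb, 81.0% of it in such domains, and the longest was 10.9 Mb. Without bridging 48.9% of their length lay in such domains, and the longest was 6.3 Mb. The lower domains covered 1109.1 Mb, 83.4% of it in domains of 1 Mb or longer, and the longest was 17.9 Mb. They depended more on depth and bridging: at equal reads they covered 604.9 Mb with 50.5% in such domains and a longest of 4.3 Mb, and without bridging they covered 906.3 Mb, of which 298.8 Mb lay in such domains, with a longest of 4.8 Mb. Since domains were built from this contrast, their OE values are descriptions.

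The long higher domains held few genes. Cadherins, protocadherins and ephrin receptors are among the genes of longest span in them. The longest lies on chromosome 15 (13300001 to 24300000) and holds 6 protein-coding genes, among them Cdh12, Cdh18, Cdh10 and Cdh9, type II cadherins of the nervous system. Its OE ran from 0.545 to 3.04 with Dam-lamin B1 (median 1.76) and from 0.276 to 0.935 with Dam (median 0.612), and 18 of 19 Dam-lamin B1 zygotes lay above every Dam zygote. The second lies on chromosome 14 (87900001 to 98500000) and holds Pcdh9, Klhl1, Dach1 and Pcdh20. Its OE ran from 0.806 to 2.32 with Dam-lamin B1 (median 1.53) and from 0.221 to 0.804 with Dam (median 0.435), so the groups did not overlap. Only 50.9% of its bins lie in both blastocyst lists and 15.1% lie in neither. The third lies on chromosome 5 (54400001 to 63600000) with Pcdh7 and Arap2, and had 1.84 ± 0.42 with Dam-lamin B1 against 0.538 ± 0.153 with Dam.

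The other 7 of the 10 longest held 2 to 11 protein-coding genes each. On chromosome 5 (78300001 to 85800000), with the latrophilin gene Adgrl3 and the ephrin receptor gene Epha5, OE was 1.83 ± 0.32 with Dam-lamin B1 against 0.525 ± 0.145 with Dam, and the groups did not overlap. On chromosome 16 (65400001 to 72600000), with the Slit receptor gene Robo1 and the adhesion gene Cadm2, it was 1.44 ± 0.35 with Dam-lamin B1 against 0.490 ± 0.137 with Dam, and 20.8% of these bins lie in neither list. On chromosome 3 (42400001 to 49600000), where Pcdh10 and Pabpc4l are the only 2 protein-coding genes placed, it was 1.46 ± 0.49 with Dam-lamin B1 against 0.514 ± 0.156 with Dam. On chromosome 3 (70400001 to 78500000), with Fstl5, it was 1.57 ± 0.52 with Dam-lamin B1 against 0.536 ± 0.124 with Dam. On chromosome 8 (96500001 to 102900000), with the cadherin genes Cdh8 and Cdh11 alone, it was 1.58 ± 0.44 with Dam-lamin B1 against 0.505 ± 0.125 with Dam. On chromosome 15 (44500001 to 51500000), with Csmd3 and the transcription factor gene Trps1, it was 1.68 ± 0.49 with Dam-lamin B1 against 0.543 ± 0.149 with Dam. On chromosome 4 (25200001 to 31500000), with Fut9, a fucosyltransferase, and Epha7, it was 1.79 ± 0.28 with Dam-lamin B1 against 0.604 ± 0.189 with Dam.

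The long lower domains were gene-dense, as inter-LADs are. Those of 5 Mb or longer held 1.52 genes per bin, against 1.59 in inter-LAD bins and 0.463 in LAD bins. As domains of this length they rest on the depth as deposited and on bridging. The longest lies on chromosome 15 (71900001 to 89800000), holds 339 protein-coding genes, among them the trafficking gene Trappc9 and the microRNA silencing gene Tnrc6b, and has 77.1% of its bins in neither list. Its OE ran from 0.534 to 1.06 with Dam-lamin B1 (median 0.770) and from 0.608 to 2.18 with Dam (median 1.53). Only 2 of 19 Dam-lamin B1 zygotes lay below every Dam zygote, since 1 Dam zygote was at 0.608. The domain on chromosome 4 (127000001 to 143500000, 278 genes), with the initiation factor gene Eif4g3 and the ephrin receptor gene Ephb2, had 0.735 ± 0.150 with Dam-lamin B1 against 1.51 ± 0.19 with Dam (18 of 19 below all Dam zygotes). The domain on chromosome 17 (23500001 to 37100000, 441 genes), which includes much of the major histocompatibility complex, had 0.873 ± 0.161 with Dam-lamin B1 against 1.72 ± 0.27 with Dam. On chromosome 8 (113500001 to 127000000), where 36.3% of bins lie in both LAD lists and Cdh13 and Wwox are the longest genes, OE was 0.691 ± 0.121 with Dam-lamin B1 against 1.48 ± 0.21 with Dam, and the groups did not overlap. The domains on chromosome 5 (110200001 to 123400000, with the Mediator gene Med13l) and chromosome 2 (24400001 to 36300000, with Pbx3) had 0.749 ± 0.135 and 0.840 ± 0.164 with Dam-lamin B1, against 1.57 ± 0.21 and 1.75 ± 0.31 with Dam. The others among the 10 longest were on chromosomes 9 (Rora, a nuclear receptor), 6 (Magi1), 12 (Unc79) and 2 (Tshz2), with means of 0.676 to 0.734 with Dam-lamin B1 against 1.32 to 1.51 with Dam.

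At the depth as deposited, the longest domains differed from single bins in gene content and, among lower domains, in LAD membership. Higher domains of 5 Mb or longer, 26 in number, held 0.103 genes per bin, and their mean OE was 1.69 with Dam-lamin B1 against 0.545 with Dam. Those of 1 bin, 179 in number, held 0.693 genes per bin. Of the bins of higher domains 71.4% lay in both lists in the longest class and 77.1% in single bins, with 79.0% to 86.5% in the classes between. Values of cells of 2-cell embryos were not used to build the domains. Over the higher domains of 5 Mb or longer their mean OE was 0.813 with Dam-lamin B1 against 0.538 with Dam. Over those of 1 bin it was 1.13 with Dam-lamin B1 against 0.729 with Dam. Zygotes kept in DMSO had 1.35 with Dam-lamin B1 over the higher domains of 5 Mb or longer. Lower domains of 5 Mb or longer, 38 in number, held 1.52 genes per bin, and 77.1% of their bins lay in neither list. Such domains numbered 0 at equal reads, 0 without bridging and 2 at an adjusted p under 0.001. Lower domains of 1 bin, 224 in number, lay in both LAD lists in 73.2% of cases and held 0.621 genes per bin. Their mean OE in cells of 2-cell embryos with Dam-lamin B1 was 1.31. The Dam-lamin B1 zygotes that gave these calls averaged 0.636 over them. In the DMSO zygotes with Dam-lamin B1, which were not used for the calls, mean OE over them was 1.08, so the low value did not recur there. Over lower domains of every length, 22.6% of bins lay in both lists, and 13.8% at equal reads. Lower domains of 1 bin numbered 457 at equal reads, and their LAD share and gene content were not computed. Whether these single-bin calls reflect depth or selection for low values was not tested.

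Of the 1 Mb windows, the greatest differences upward were in windows without a gene. The window on chromosome 4 from 27000001 to 28000000 had an OE from 0.878 to 4.02 with Dam-lamin B1 (median 2.12) and from 0.102 to 1.10 with Dam (median 0.517), with 18 of 19 zygotes above all Dam zygotes (log2 difference 1.75, SE 0.13, limma adjusted p = 4.29e-24). The other 4 of the highest 5, on chromosomes 1, 8, 5 and 17, also held no protein-coding gene, and 18 of 19 zygotes lay above all Dam zygotes in each. The lowest window, on chromosome 2 from 163000001 to 164000000, holds 18 genes, among them Hnf4a, a hepatocyte nuclear factor, and Tox2. Its OE ran from 0.0783 to 0.964 with Dam-lamin B1 (median 0.547) and from 0.701 to 4.43 with Dam (median 1.59), with 14 of 19 zygotes below all Dam zygotes (-1.20, SE 0.11, limma adjusted p = 4.08e-18). The window of Anks1, Grm4 and Itpr3 on chromosome 17 (27000001 to 28000000) had 0.970 ± 0.295 with Dam-lamin B1 against 2.37 ± 0.58 with Dam (-1.12, SE 0.09, limma adjusted p = 2.61e-21).

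Gene content separated bins even inside LADs. With Dam-lamin B1, 33.4% of bins with no gene midpoint were higher and 23.9% were lower, and of bins with 5 or more genes 8.28% were higher and 74.4% lower, against 22.1% and 37.9% over all bins. Mean OE was 1.14 with Dam-lamin B1 against 0.852 with Dam in bins without a gene, and 0.964 with Dam-lamin B1 against 1.56 with Dam in bins with 5 or more. Within LAD bins, 39.5% of those without a gene were higher and 13.0% lower, while of those with a gene 20.5% were higher and 23.7% lower. Mean OE in LAD bins was 1.25 with Dam-lamin B1 against 0.781 with Dam without a gene, and 1.08 with Dam-lamin B1 against 0.934 with Dam with one. The median log2 difference of LAD bins with a gene was -0.12, although their mean OE was higher with Dam-lamin B1. In inter-LAD bins with a gene, 0.434% were higher and 77.9% lower. These shares are calls at the depth as deposited and were not computed at equal reads. Over all bins, lower calls numbered 9063 at the depth as deposited and 4286 at equal reads.

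Gene families fell on different sides, read against a median log2 difference of -0.70 over the 10574 tested bins that hold a gene midpoint (837 or 7.92% higher and 5886 or 55.7% lower). Counts by family are likewise calls at the depth as deposited and were not made at equal reads. Contactins, neuronal adhesion proteins, had 8 of 13 bins higher and 2 lower (median 0.69). The bin of Cntnap2 on chromosome 6 had a median OE of 1.90 with Dam-lamin B1 (0 to 6.40) against 0.276 with Dam (0 to 2.25), with a log2 difference of 1.86 (SE 0.30, limma adjusted p = 9.85e-08, 18 of 19 above the Dam median). The bin of Cntn2 on chromosome 1 had 0.442 with Dam-lamin B1 against 1.96 with Dam (medians), a difference of -1.84 (SE 0.26, limma adjusted p = 1.88e-09, 19 of 19). GABA-A receptor subunits had 6 of 16 bins higher and 4 lower (median 0.25), formyl peptide receptors, which sense bacterial and damage-derived peptides, 3 of 5 higher and 0 lower (0.71), and Skint genes 3 of 10 higher and 0 lower (0.34). Of 18 bins of major urinary proteins 14 were tested, and they gave no call in either direction (limma, median -0.31). Signal was low there: the median OE of the Mup11 bin was 0 in both groups. That of the Mup20 bin was 0 with Dam-lamin B1 against 0.589 with Dam. The lack of calls does not show that the groups are alike in these bins.

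Cadherins, cell adhesion proteins, had 8 of 23 bins higher and 10 lower (median -0.55). The bin of Cdh10 had an OE of 1.72 ± 0.80 with Dam-lamin B1 against 0.443 ± 0.499 with Dam (1.69, SE 0.30, limma adjusted p = 9.01e-07), and that of Cdh15, the cadherin of muscle, 0.690 ± 0.776 with Dam-lamin B1 against 2.16 ± 1.56 with Dam (-1.63, SE 0.26, limma adjusted p = 7.52e-08). Potassium channels had 9 of 88 bins higher and 63 (71.6%) lower (median -0.88). Among them the bin of Kcnip4 had 2.05 ± 1.09 with Dam-lamin B1 against 0.451 ± 0.503 with Dam. Leucine-rich synaptic proteins had 6 of 19 bins higher and 8 lower (median 0.00). Fgf ligands, growth factors, had 4 of 17 higher and 9 (52.9%) lower (-0.69), near the share of lower bins over all gene bins, with Fgf14 highest (1.97 ± 1.52 with Dam-lamin B1 against 0.475 ± 0.455 with Dam).

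In the lists of genes for transcription, splicing, translation and protein turnover given next, 72.7% to 95.0% of bins were lower with Dam-lamin B1, against 55.7% of all gene bins. In the Mediator list, also of transcription, 67.9% were lower. Across these lists, Mediator included, 0% to 17.0% of bins lay in both LAD lists, against 32.4% of all gene bins. RNA polymerase II subunits had 0 of 13 bins higher and 12 lower (median -1.16), the chaperonin that folds actin and tubulin 0 of 9 higher and 8 lower (-1.18), and SR and SF3 splicing factors 0 of 20 higher and 19 lower (-0.91). Translation initiation factors had 0 of 53 higher and 43 lower (-0.97), the mitochondrial ribosome 2 of 77 higher and 56 lower (-0.93), the proteasome 2 of 47 higher and 36 lower (-0.85) and the anaphase-promoting complex 0 of 10 higher and 9 lower (-1.07). The bin of the chaperonin gene Tcp1 had an OE of 0.339 ± 0.427 with Dam-lamin B1 against 1.54 ± 1.10 with Dam (-1.66, SE 0.28, limma adjusted p = 3.57e-07, 19 of 19 below the Dam median). The bin of Ndufaf8, an assembly factor of respiratory complex I, had 0.356 ± 0.499 with Dam-lamin B1 against 1.91 ± 1.16 with Dam (-1.95, SE 0.27, limma adjusted p = 2.52e-09). Exceptions were Psma2, a proteasome subunit (1.82 ± 1.51 with Dam-lamin B1 against 0.770 ± 0.859 with Dam, 0.97, limma adjusted p = 0.00351), and the mitochondrial ribosome gene Mrps30 (1.68 ± 1.51 with Dam-lamin B1 against 0.656 ± 0.708 with Dam, 1.09, limma adjusted p = 0.00113), both in LAD bins.

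Developmental transcription factors and signals are read against the 55.7% of gene bins that were lower. Forkhead factors had 1 of 39 bins higher and 31 (79.5%) lower (median -0.93), T-box factors 0 of 15 higher and 11 (73.3%) lower (-1.02) and Wnt ligands 0 of 16 higher and 12 lower (-0.86). Sox factors, with 0 of 18 higher and 10 (55.6%) lower (-0.69), were at the share of all gene bins. The 1 higher forkhead bin was that of Foxp2 (1.60 ± 1.32 with Dam-lamin B1 against 0.468 ± 0.496 with Dam, 1.24, SE 0.30, limma adjusted p = 0.000271), although it lies in neither LAD list. The bin of Foxo1 had 0.339 ± 0.474 with Dam-lamin B1 against 1.42 ± 1.04 with Dam, and that of Tbx5, needed for heart and forelimb, 0.323 ± 0.446 with Dam-lamin B1 against 1.53 ± 0.86 with Dam (-1.81, SE 0.28, limma adjusted p = 1.62e-08). Trace amine receptors, although all 3 of their bins lie in both LAD lists, had 0 bins higher and 3 lower. The bin of Taar1 had 0.756 ± 0.478 with Dam-lamin B1 against 1.39 ± 0.73 with Dam (-0.71, limma adjusted p = 0.017, and 0.106 at equal reads). The bins of Taar1 and Taar8c both lie between 23900001 and 24200000 on chromosome 10, so they are not independent. Of the immune families, killer lectin receptors had 5 of 16 bins higher and 3 lower (0.32), and 93.8% of the 16 lay in both LAD lists. MHC genes had 1 of 20 bins higher and 14 lower (-0.79) and type I interferons 0 of 5 higher and 2 lower (-0.49). Bitter taste receptors had 2 of 14 higher and 0 lower, kallikreins 0 of 7 higher and 5 lower, serpins 2 of 37 higher and 13 lower, ADAM proteases 2 of 29 higher and 12 lower and collagens 3 of 42 higher and 23 lower. Complex I had 0 of 47 higher and 36 lower, Mediator 0 of 28 and 19, the nuclear pore 0 of 20 and 15, the V-ATPase 0 of 22 and 16 and lysine demethylases 0 of 15 and 8 (53.3%).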

How the data were processed

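DNA methylated by Dam was amplified and sequenced from single zygotes. What the authors deposited is, for each cell and 100 kb bin, the ratio of reads observed over reads expected (OE), build mm10 per the submitters' processing notes, which name cutadapt and BWA 0.7.12 without order or settings. The sources used here do not describe the expectation. The deposited LAD lists hold intervals without scores. Of 24639 bins, 617 without a value were left out. Members, measures and gene lists were chosen with earlier results of these data known.

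Depth was estimated by taking OE values of a bin as whole multiples of what 1 read is worth. With a tolerance of 0.02 reads, at least 99.99% of low values came out whole, and the step was found for 23815 bins. Were 1 step worth several reads, depth would be a multiple of this estimate. Equal-read values thin each zygote to 28295 reads. The labels mention no molecular identifiers.

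Measures per zygote were compared by 2-sided permutation of the group labels with 100000 resamples, where 1e-05 is the smallest p possible, and adjusted by Benjamini-Hochberg within each family (10 size classes, 19 chromosomes, 7 distances, 36 positions and so on). Bins, windows and runs were fitted with limma 3.58.1 in R 4.3.3 (empirical Bayes with trend) on log2(OE + 0.25), Benjamini-Hochberg adjusted over all features, with bins above 0 in at least 7 zygotes, and called at 0.05. Both procedures were tested on simulated data. Genes, 20665 protein-coding ones by RefSeq GRCm38.p6, were placed by midpoint, and of 27018 genes with a promoter sequence the first start listed was used. Named are the 10 longest domains each way, the 5 highest and lowest windows, the highest and lowest member of a list, and the 2 chromosomes each of largest and smallest contrast difference, with stated exceptions. Some of the windows and list members so chosen are not reported here. Not every one of them is printed. Alternatives changed the pseudocount, filter, depth, LAD list, window size, threshold and set of zygotes.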

Additional observations from a re-analysis of the deposited data

How the results depend on the processing

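Of 257 values of the comparisons under other settings, 206 kept their direction and side of the threshold or stayed within 1.5 times. Another 24 no longer passed the threshold, 17 were reversed in sign, and 10 counts moved by more than 1.5 times. Values of single chromosomes, bins, windows and runs numbered 889, with 849 unchanged in the first sense and 0 reversed. The cause of each change below was not tested, apart from settings that by construction test fewer zygotes or other features.

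With the ICM list alone, LADs of 0.5 to under 1 Mb gave -0.097 and inter-LADs under 0.5 Mb -0.066, and with the TE list alone those LADs gave -0.085 and inter-LADs of 0.5 to under 1 Mb -0.0081. At equal reads, autocorrelation differences were 0.043, 0.040, 0.033, 0.022 and 0.014 from 0.1 to 2 Mb and -0.0041 at 5 Mb. Variation differences were then 0.025, 0.031, 0.031, 0.038, 0.043, 0.044 and 0.040 from 0.1 to 10 Mb windows, run length differed by 0.0031 Mb and the share in runs of 1 Mb or longer by 1.00 percentage points. Without zygotes under 40000 reads (10 and 44 left, chosen after seeing the data), autocorrelation gave -0.011 at 5 Mb and -0.013 at 10 Mb, run length -0.0083 Mb and variation 0.068, 0.044, 0.027, 0.027, 0.033, 0.032 and 0.033. Without those under 100000 reads (2 and 19 left), autocorrelation gave 0.0067 and 0.0022 at these distances, run length 0.0068 Mb, variation -0.052, -0.035, -0.0076, 0.0056, 0.016, 0.020 and 0.026, and 0 chromosome means were called higher and 0 lower, although the differences of all 11 called chromosomes kept their sign. Parts 2, 3, 6 and 7 of 10 then gave 0.070, 0.079, 0.051 and -0.053 and did not pass. Runs at an OE of at least 1.5 differed by 0.0043 Mb, and proximal ends of 5 Mb by -0.092.

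Lower bins numbered 4286 at equal reads and 5285 without zygotes under 40000 reads. Windows of 0.5 Mb gave 1472 higher and 2340 lower, and those of 2 Mb 404 and 597. Without bridging there were 1187 higher and 2526 lower domains, against 594 and 1192 at equal reads, an alternative chosen after seeing the data. Shared replicate numbers did not pair zygotes (19 pairs, r between -0.048 and 0.040, 0 over 0.1, 1 of 19 closest to its own number). The fit with the replicate block called 3702 bins higher and 7179 lower, and 713 windows higher and 1145 lower. Depth limits single bins, where a zygote often has 0 reads, more than runs or windows.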

Other observations

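In 1 Dam zygote, replicate 44, the chromosome mean was low on chromosomes 12, 15 and 19 together, at log2 levels of -1.06, -1.13 and -1.01 relative to its own mean, which are the lowest values of the Dam group on these chromosomes. The Dam group means were -0.10, -0.01 and 0.14 there. In the Dam-lamin B1 group, the single zygote inside the Dam range of the LAD contrast of chromosome 11, at -0.69, was replicate 7. What sets these zygotes apart was not tested.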
